A study of Mus musculus with 6 samples.

Results

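Claudins are a family of small membrane proteins that span the membrane 4 times and line up at the tight junction, the seal between neighboring epithelial cells. Which claudins an epithelium makes sets how leaky the seal is and which ions pass. Some members tighten it and others, such as claudin-2, form pores for cations. Stratified squamous epithelium, as in the esophagus, and columnar epithelium, as in the stomach, are known for different claudins, and *Cldn18* has a form known from stomach.

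Claudin expression was measured in organoids, small epithelial structures grown from tissue stem cells in a gel matrix, on 6 single-color Agilent arrays. There were 3 arrays of mouse esophagus organoids, labelled squamous, and 3 of mouse stomach organoids, labelled columnar, and the labels number the mice of each set 1, 2 and 4. All 6 were controls at passage 0. The culture lasted 8 days, or 7 in the case of mouse 4's stomach organoids. Per the study's methods the stomach glands came from the corpus and were grown with WNT3A, R-spondin1 and gastrin, which the esophagus medium did not contain, while the esophagus medium held forskolin, so tissue and medium cannot be told apart. The labels give no strain or age for these mice. The study's methods name wild-type C57BL/6 females among its animals and an age range for adult mice, without tying either to these samples.

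The genes described are 10 claudins chosen by name, *Cldn1*, *Cldn2*, *Cldn3*, *Cldn4*, *Cldn7*, *Cldn8*, *Cldn10*, *Cldn15*, *Cldn18* and *Cldn23*, and every non-control probe that carries one of these names was used. They had 13 probes of 55681 on the array, under 10 of 34298 gene names. Values are the log2 values deposited by the authors after background correction and quantile normalization, differences are esophagus minus stomach on that scale, and a probe counts as called when the limma p-value, adjusted by Benjamini-Hochberg over all 55681 probes, is under 0.05. Fluorescence depends on the probe as well as on the RNA, so levels are compared between arrays for 1 probe and never between probes. A spot was taken as detected when the scanner software marked it as well above background. Where a whole tissue was undetected the fold is given as a lower bound, written as at least. This bound allows for the undetected level only, and not for the spread between arrays or the processing. With 3 arrays per tissue an exact permutation test cannot give a two-sided p below 0.1, so the calls rest on limma alone.

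The labels of the tissues were checked on marker genes. *Krt5*, a keratin of basal squamous cells, stood at 17.07, 17.08 and 17.08 in the esophagus and 4.85, 5.19 and 5.39 in the stomach. *Krt8*, a keratin of simple epithelium, stood at 5.50, 5.83 and 5.21 in the esophagus and 16.71, 16.65 and 16.88 in the stomach. The gastric pit gene *Gkn1* was detected on the 3 stomach arrays and on none of the esophagus. Of the 10 gastric gland markers 9 were called toward the stomach. The parietal cell gene *Atp4b* was detected on no array, and the parietal cell gene *Atp4a* was dim in the stomach, at 5.76, 6.01 and 6.42. The intestinal genes *Cdx2* (-4.63, at least 18.1-fold) and *Vil1* (-8.12, at least 278-fold) were also higher in the stomach organoids, as was *Lgals4* (-7.30). Of the other 3 intestinal markers *Fabp2* was higher on every esophagus array but not called (1.90, limma adjusted p = 0.112), *Muc2* was not called (-0.43) and *Cdx1* was detected on no array. The brightest probe of *Trp63*, a squamous lineage factor, was higher in the stomach (-1.22, limma adjusted p = 0.0249), unlike the other 7 of the 8 squamous markers. Other *Trp63* probes of the array are not given here, so that direction holds for this probe and not for the gene. The summed linear level of the squamous list was 412000 to 476000 in the esophagus and 1900 to 3470 in the stomach. That of the gastric gland list was 289 to 321 and 573000 to 670000, and that of the intestinal list 555 to 1220 and 42600 to 57100. Such sums rest mostly on the brightest probes of a list, for the intestinal one *Lgals4*, at 15.31, 14.94 and 15.28 in the stomach. None of the 4 endothelial markers, 8 fibroblast and smooth muscle markers or 4 immune markers was called, and *Pecam1* differed by -0.19 (limma adjusted p = 0.572). The esophagus array of mouse 4 was the only one on its slide and departed from the other esophagus arrays for several claudins, so results that rest on it are given with and without it. Bulk RNA cannot tell a higher level per cell from a larger share of cells with the RNA.

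Of the 13 claudin probes 6 were called, 1 toward the esophagus and 5 toward the stomach. Over all probes 12.2% were called, with 5.94% of all probes called toward the esophagus and 6.22% of all probes toward the stomach. By gene, 5 of 10 claudins had a called probe, *Cldn8* toward the esophagus and *Cldn2*, *Cldn3*, *Cldn7* and *Cldn18* toward the stomach, beside 16.2% of all gene names. The groups did not overlap for 8 of 13 probes, against 28.6% of probes on the array. The median difference of the 13 probes was -0.32 and that of all probes 0.02. Detection on all 3 arrays of at least 1 tissue was reached by 9 of 13 probes, and 2 were detected on no array. The 10 genes were chosen with earlier results of these data known, so these shares describe them and are no test.

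**Figure D1:**
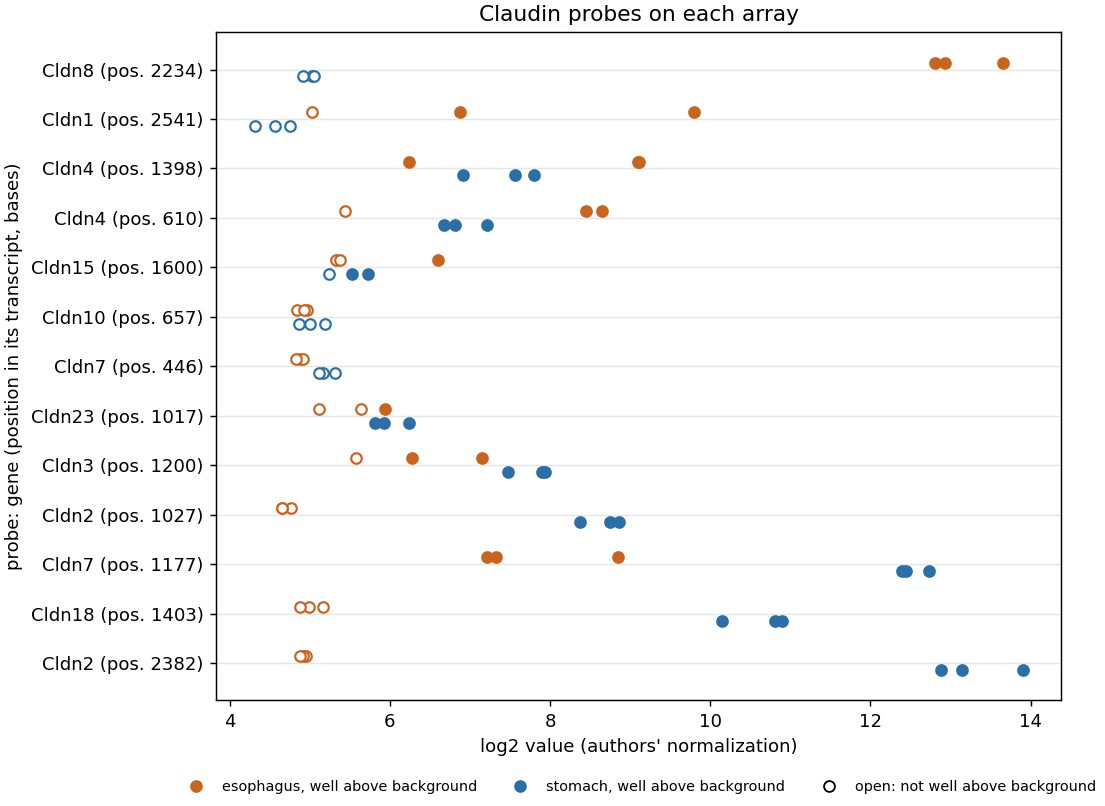
Log2 value of each of the 13 claudin probes (rows) on the 3 esophagus arrays (orange) and the 3 stomach arrays (blue). Filled points were well above background and open points were not. *Cldn8* lies at 12.81 to 13.65 in the esophagus against 4.92 to 5.05 in the stomach, and the *Cldn2* probe at position 2382 lies at 4.88 to 4.95 against 12.88 to 13.90.

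Promoter sequence was taken from RefSeq (GRCm38.p6), which matched 8 of the 10 claudins with 11 start sites. Printed are the 250 bases before the start site, 5' to 3' on the gene's own strand, for the claudins whose tissue difference was largest in the stomach (*Cldn2*, and *Cldn18* with its 2 starts) and for those that varied widely among the esophagus arrays (*Cldn1*, *Cldn4*) together with *Cldn3*, the neighbor of *Cldn4*. Capitals mark matches, on either strand, to 7 motifs searched, the TATA box TATAAA, the CCAAT box CCAAT, the GC box GGGCGGG, the AP-1 motif TGANTCA, the GATA motif AGATAA, the FOXA motif TGTTTAC and the GRHL motif AACCNGGTT. A match is a description of letters and not a sign that a factor binds.
Cldn2, chrX:139800558-139800807, plus strand: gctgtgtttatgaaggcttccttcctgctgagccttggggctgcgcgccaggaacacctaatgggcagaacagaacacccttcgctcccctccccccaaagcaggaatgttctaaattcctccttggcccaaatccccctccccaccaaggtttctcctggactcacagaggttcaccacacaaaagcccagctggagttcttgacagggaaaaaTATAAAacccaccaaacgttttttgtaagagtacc
Cldn18, upstream start, chr9:99717268-99717517, minus strand: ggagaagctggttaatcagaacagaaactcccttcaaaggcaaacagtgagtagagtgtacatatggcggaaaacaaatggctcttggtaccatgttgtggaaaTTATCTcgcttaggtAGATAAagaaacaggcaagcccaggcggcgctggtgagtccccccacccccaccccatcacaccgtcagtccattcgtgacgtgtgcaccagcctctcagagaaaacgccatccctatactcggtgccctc
Cldn18, downstream start, chr9:99710064-99710313, minus strand: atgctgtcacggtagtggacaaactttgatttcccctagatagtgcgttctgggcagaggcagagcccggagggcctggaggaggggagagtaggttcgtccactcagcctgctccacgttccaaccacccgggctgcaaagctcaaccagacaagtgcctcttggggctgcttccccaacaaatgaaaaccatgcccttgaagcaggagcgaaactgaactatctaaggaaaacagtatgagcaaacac
Cldn4, chr5:134946935-134947184, minus strand: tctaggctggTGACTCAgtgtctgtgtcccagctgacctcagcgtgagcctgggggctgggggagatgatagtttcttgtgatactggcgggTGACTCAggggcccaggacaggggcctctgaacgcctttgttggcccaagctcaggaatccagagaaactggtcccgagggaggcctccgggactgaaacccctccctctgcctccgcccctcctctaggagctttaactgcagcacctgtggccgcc
Cldn3, chr5:134985964-134986213, plus strand: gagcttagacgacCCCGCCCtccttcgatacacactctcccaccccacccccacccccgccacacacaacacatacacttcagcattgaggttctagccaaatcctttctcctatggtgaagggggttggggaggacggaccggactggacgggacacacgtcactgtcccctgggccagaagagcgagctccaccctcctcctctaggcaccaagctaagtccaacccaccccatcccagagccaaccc
Cldn1, chr16:26371840-26372089, minus strand: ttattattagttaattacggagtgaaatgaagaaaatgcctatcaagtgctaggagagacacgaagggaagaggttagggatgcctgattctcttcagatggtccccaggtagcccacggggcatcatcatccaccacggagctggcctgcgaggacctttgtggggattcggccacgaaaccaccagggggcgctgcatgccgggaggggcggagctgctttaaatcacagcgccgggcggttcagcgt

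The *Cldn2* window held a TATA box that begins 35 bases before the start site, a motif found in 12.4% of 32851 promoters of the same length. The upstream *Cldn18* window held 2 GATA motifs, 146 and 131 bases before the start, and 0.938% of all promoters held 2 or more. No searched motif lay in the window of the downstream *Cldn18* start. The *Cldn4* window held the AP-1 letters TGACTCA at 240 and at 158 bases before the start, and 0.338% of all promoters held 2 or more AP-1 motifs against 6.75% with at least 1. The *Cldn3* window held 1 GC box (23.4% of promoters) and the *Cldn1* window none of the 7. The CCAAT, FOXA and GRHL motifs, in 33.8%, 3.17% and 0.24% of all promoters, were in none of the 6 windows printed, and GATA was in 9.99% of all.

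Of the 10 claudins only *Cldn8*, known as a sealing claudin of tight epithelia, was called toward the esophagus with all 6 arrays. Its probe was at chr16:88561135-88561194 (mm9, minus strand, NM_018778). It stood at 13.65, 12.81 and 12.93 in the esophagus and at 5.03, 4.92 and 5.05 in the stomach. The esophagus arrays were all high and lay within 1.79-fold of each other, and no stomach array detected it. Mean spot intensity was 13300, 7750 and 9560 in the esophagus over a local background of 19 to 23, and 36.5, 29.2 and 37.5 in the stomach. The difference was 8.13 (SE 0.23, 95% confidence interval 7.59 to 8.67, limma adjusted p = 5.34e-07), at least 278-fold higher in the esophagus. It was called under each of 14 alternatives, between 6.99 and 10.17.

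*Cldn8* has *Cldn17* next to it on chromosome 16, and *Cldn17*, known as an anion-pore claudin and not among the 10, had the largest difference of the other claudin genes on the array. Its probe, at chr16:88506183-88506242, read 14.19, 14.46 and 12.50 in the esophagus and 5.0, 4.63 and 4.87 in the stomach. It was bright on the 3 esophagus arrays, lowest on that of mouse 4, and undetected in the stomach. The difference was 8.88 (SE 0.47, limma adjusted p = 1.25e-05), at least 438-fold, and 9.49 (limma adjusted p = 6.4e-07) without the esophagus array of mouse 4. The longest run of bases shared by the *Cldn8* and *Cldn17* probes was 6 of 60. Among the 703 pairs of 38 claudin probes the longest shared run was 13. Only probes were compared with each other, and whether either probe also binds RNA of the other gene was not tested.

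On the stomach side *Cldn2*, the pore-forming claudin of leaky epithelia, had 2 probes and both were called. The probe at chrX:136345244-136345303 (mm9, plus strand, NM_016675) read 4.95, 4.91 and 4.88 in the esophagus and 12.88, 13.15 and 13.90 in the stomach. None of the esophagus arrays detected it, and among the stomach arrays that of mouse 4, harvested a day earlier than the others, was highest. The difference was -8.39 (SE 0.26, 95% confidence interval -8.99 to -7.8, limma adjusted p = 7.25e-07), or at least 317-fold in favor of the stomach. The probe at chrX:136343889-136343948, nearer to the 5' end of the transcript, read 4.76, 4.65 and 4.65 against 8.37, 8.86 and 8.75. It gave the same direction with a smaller difference of -3.97 (SE 0.17, limma adjusted p = 4.06e-06), at least 13-fold. The esophagus was undetected with both probes, so the sizes are bounds and do not show that the probes disagree. Over the alternatives they ran from -11.27 to -7.28 and from -6.69 to -2.86.

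*Cldn18*, a claudin known for a lung and a stomach form that begin at different first exons, had 1 probe at chr9:99592601-99592660 (mm9, minus strand). The array annotation lists 4 RefSeq transcripts for it, so the 2 forms, and the 2 start sites printed above, are not separated by this probe. It read 5.17, 4.99 and 4.88 in the esophagus and 10.81, 10.89 and 10.15 in the stomach. The 3 stomach arrays were all high, that of mouse 4 the lowest, and no esophagus array detected it. The difference was -5.60 (SE 0.22, 95% confidence interval -6.12 to -5.09, limma adjusted p = 2.53e-06), or at least 47.1-fold toward the stomach, and -8.66 to -4.54 over the alternatives.

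*Cldn7*, a claudin found along the sides of many epithelial cells as well as at the junction, was detected on all 6 arrays by the probe at chr11:69781255-69781314 (mm9, plus strand, NM_016887). It read 8.85, 7.32 and 7.21 in the esophagus and 12.40, 12.45 and 12.73 in the stomach. *Cldn7* was thus measured in both tissues and was not confined to the stomach organoids. The difference was -4.73 (SE 0.41, 95% confidence interval -5.68 to -3.78, limma adjusted p = 0.000204), 26.5-fold higher in the stomach. A second probe, at chr11:69778772-69778831, is annotated only to 1 Ensembl transcript and was detected on no array. It read 4.88, 4.91 and 4.83 against 5.31, 5.16 and 5.12, a difference of -0.32 that was not called (limma adjusted p = 0.202). With the 2 probes averaged before the fit, *Cldn7* differed by -2.53 (limma adjusted p = 0.000478).

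*Cldn3*, a sealing claudin of simple epithelia, was called with a small margin. Its probe at chr5:135463284-135463342 (mm9, plus strand, NM_009902) read 7.15, 6.28 and 5.58 in the esophagus and 7.90, 7.48 and 7.94 in the stomach. The groups did not overlap, but the highest esophagus array and the lowest stomach array were close, and the esophagus array of mouse 4 did not detect it. The difference was -1.44 (SE 0.37, 95% confidence interval -2.29 to -0.58, limma adjusted p = 0.043), 2.70-fold higher in the stomach. The call was lost in 10 of 14 alternatives. It was lost with any array but that of esophagus replicate 1 left out, with limma adjusted p-values of 0.119 without esophagus replicate 2, 0.065 without esophagus replicate 4, and 0.155, 0.0945 and 0.098 without stomach replicates 1, 2 and 4. With the mouse as a replicate block it was kept (limma adjusted p = 0.0438).

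**Figure D2:**
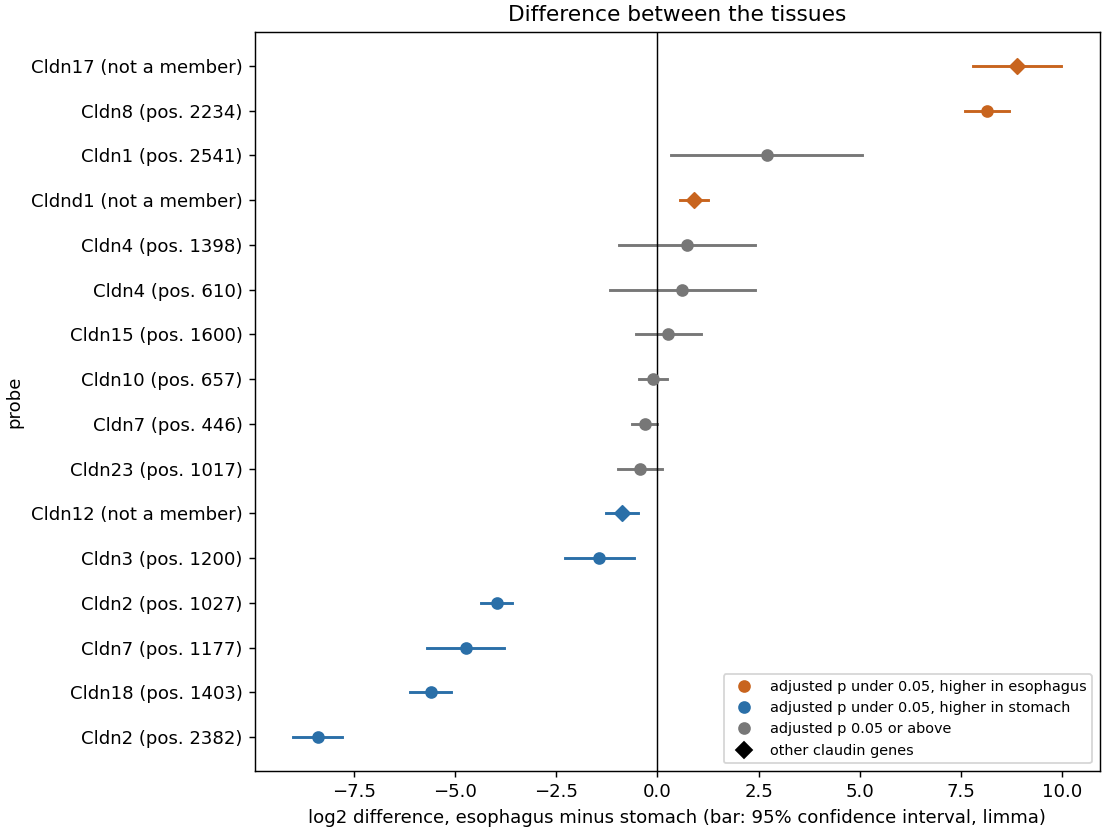
Log2 difference between the tissues, esophagus minus stomach, for the 13 claudin probes (circles) and the 3 other claudin genes that were called (diamonds), with 95% confidence intervals from limma. Orange and blue mark calls toward the esophagus and the stomach and gray marks probes that were not called. *Cldn8* and *Cldn17* lie at 8.13 and 8.88, *Cldn2*, *Cldn18* and the called *Cldn7* probe at -8.39 to -3.97, the other *Cldn7* probe at -0.32, and the intervals of *Cldn1* and *Cldn4* are wide.

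*Cldn1*, a claudin needed for the barrier of the epidermis, varied widely among the esophagus arrays. Its probe at chr16:26357372-26357431 (mm9, minus strand, NM_016674) read 9.80, 6.88 and 5.03 in the esophagus and 4.75, 4.31 and 4.56 in the stomach. Of the esophagus arrays 2 detected the probe and that of mouse 4 did not, so their span was at least 27.3-fold. Mean spot intensity was 889, 130 and 34 in the esophagus over a local background of 18 to 19, and 22.2, 18.7 and 26.8 in the stomach. The groups did not overlap and no stomach array detected *Cldn1*. With the stomach undetected the means were at least 5.38-fold apart, a figure that takes the undetected esophagus array of mouse 4 at its own value. The difference of 2.70 (SE 1.02, 95% confidence interval 0.34 to 5.06) was not called (limma adjusted p = 0.15). Without the esophagus array of mouse 4 it was 3.80 and called (limma adjusted p = 0.0175), and scaling each array to its 75th percentile gave 4.77 (limma adjusted p = 0.0431). Without esophagus replicate 1 it was 1.42 and not called.

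*Cldn4*, a sealing claudin whose gene lies beside *Cldn3* on chromosome 5, was detected in both tissues and had 2 probes with the same pattern. The probe at chr5:135421347-135421406 (mm9, minus strand, NM_009903) read 9.10, 9.11 and 6.24 in the esophagus and 6.91, 7.56 and 7.80 in the stomach. The probe at chr5:135422135-135422194 read 8.45, 8.65 and 5.44 against 6.68, 7.21 and 6.81. With both probes the esophagus arrays of mice 1 and 2 were above every stomach array and that of mouse 4 was below every one, and it did not detect the second probe. The differences of 0.73 (95% confidence interval -0.96 to 2.42, limma adjusted p = 0.63) and 0.61 (95% confidence interval -1.18 to 2.4, limma adjusted p = 0.718) were not called, and intervals this wide include a difference of either sign. They were 0.26 and 0.14 without esophagus replicate 1, and 0.25 and 0.04 without esophagus replicate 2, none of them called. Without the esophagus array of mouse 4 they were 1.69 (limma adjusted p = 0.00794) and 1.65 (limma adjusted p = 0.00262), both called toward the esophagus. That array was singled out partly for these same values, so the fit without it is a description and no test. *Cldn3* and *Cldn4*, neighbors on opposite strands, read in opposite directions on the 5 arrays left, *Cldn3* by -1.06 (limma adjusted p = 0.065). That array sits alone on its slide, so the mouse, the organoid culture and the slide cannot be told apart for it. With the slide as a term the differences were those of the 5 arrays.

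The call count of the claudins changed with that array, which was singled out partly for these same values. With any other array left out, 1 probe was called toward the esophagus. Without the esophagus array of mouse 4, 8 of 13 probes were called, 4 of them toward the esophagus. Over all probes 11.3% were then called and 5.56% were higher in the esophagus. The 4 were the *Cldn8* probe, the *Cldn1* probe and both *Cldn4* probes. *Cldn7* (-4.44), *Cldn18* (-5.54), *Cldn8* (8.23) and both *Cldn2* probes (-8.38 and -3.95) changed little.

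**Figure D3:**
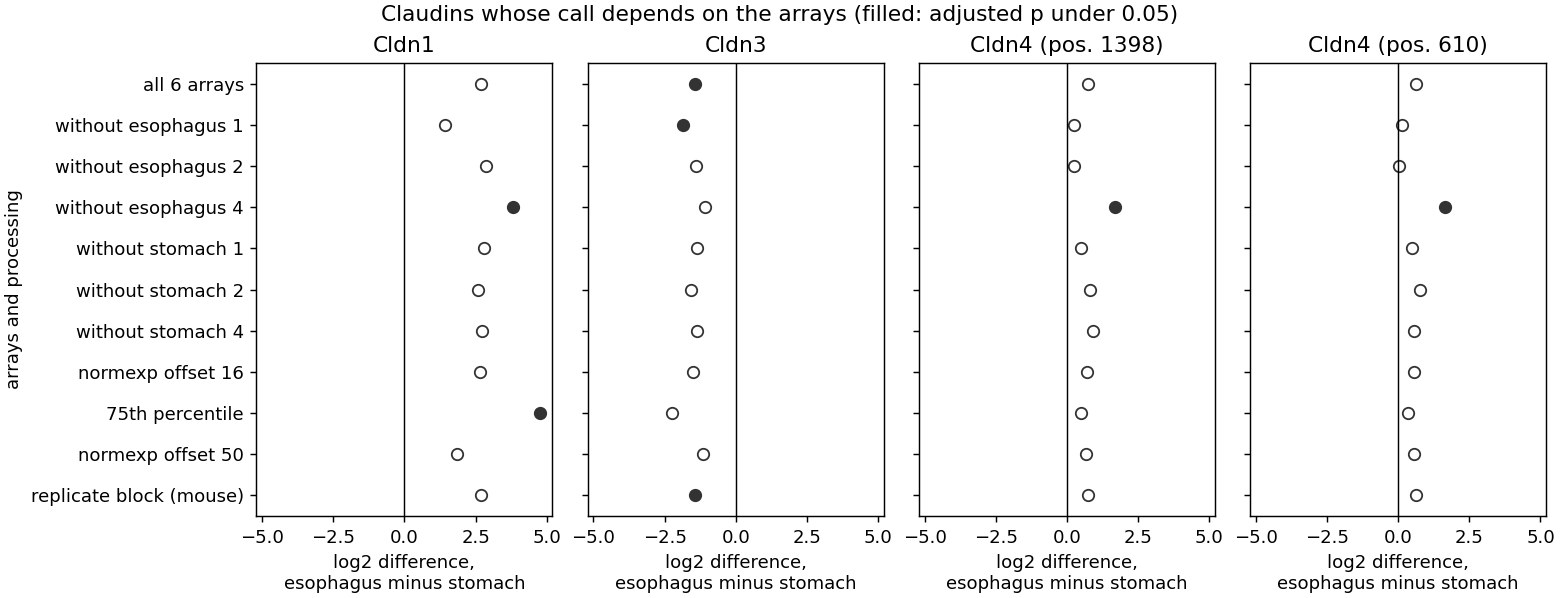
Log2 difference, esophagus minus stomach, of *Cldn1*, *Cldn3* and the 2 *Cldn4* probes with all 6 arrays, with each array left out, and under 4 other ways of processing or fitting. Filled points had a limma adjusted p under 0.05. Among the fits drawn, both *Cldn4* probes are called in the one without esophagus 4, at 1.69 and 1.65.

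How the esophagus arrays varied among themselves was examined after the values had been seen. The claudin probes detected on all 3 esophagus arrays were those of *Cldn8*, the first *Cldn7* probe and the first *Cldn4* probe described above. The array of mouse 4 was the lowest for 2 of these 3, and for 29% of the 22782 probes so detected. For *Cldn1*, *Cldn3* and the other *Cldn4* probe it was the array that did not detect them, so no order is read from these. The SD over the esophagus arrays was 1.65 for the first *Cldn4* probe, 0.91 for *Cldn7* and 0.45 for *Cldn8*. Of 24902 probes detected on at least 2 esophagus arrays, 1.26%, 5.35% and 26.6% had a larger SD than these. The SDs of *Cldn1* (2.41), the second *Cldn4* probe (1.80) and *Cldn3* (0.79) include a value not above background. In the stomach the SD of the 4 of these 6 probes detected there, those of *Cldn3*, *Cldn4* and *Cldn7*, was 0.18 to 0.46, while *Cldn1* and *Cldn8* were undetected and have no spread to compare. *Cd68*, a gene of macrophages and of lysosomes in other cells, also varied among the esophagus arrays, at 14.77, 12.94 and 11.80 in the esophagus and 11.04, 11.22 and 12.36 in the stomach, and was not called (limma adjusted p = 0.211). Of the other immune markers the pan-leukocyte gene *Ptprc* was detected on no array, and the T cell gene *Cd3e* was detected on all 6, at 7.39, 7.23 and 7.55 in the esophagus and 7.35, 7.97 and 8.34 in the stomach. The summed level of the 4 immune markers was 3820 to 28300 in the esophagus and 2320 to 5650 in the stomach, and its part in the claudin values was not tested.

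**Figure D4:**
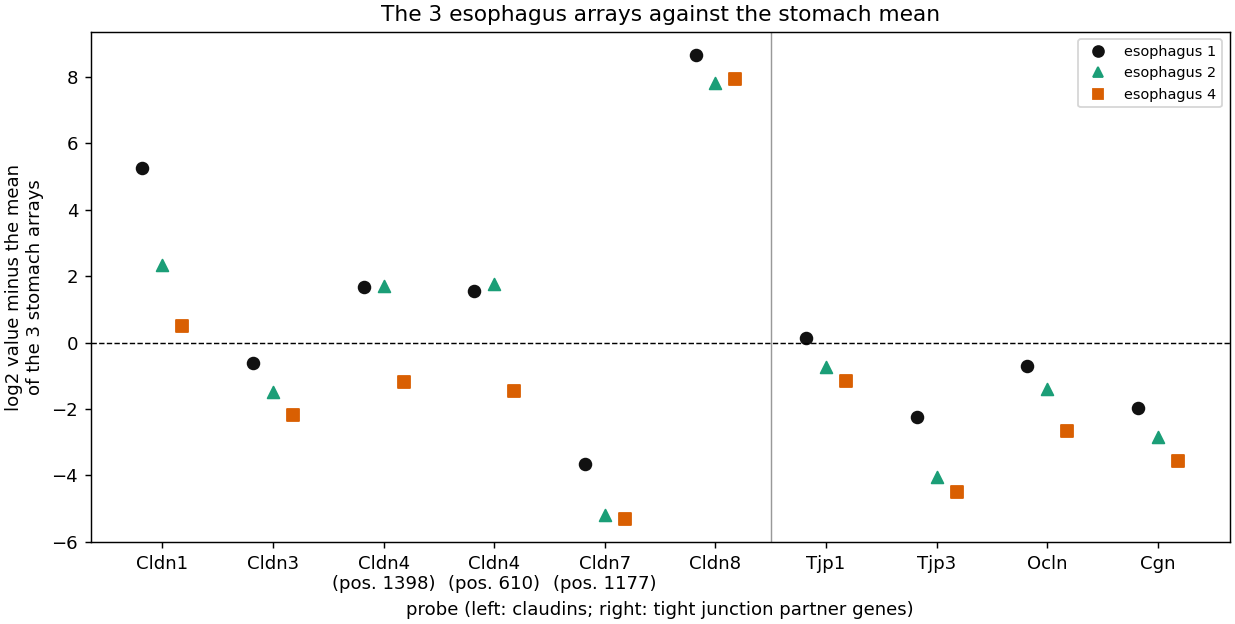
Log2 value on each esophagus array minus the mean of the 3 stomach arrays, for the 6 claudin probes detected on at least 2 esophagus arrays (left) and for 4 tight junction partner genes (right). The dashed line is the stomach mean. Both *Cldn4* probes lie above it on the arrays of mice 1 and 2 and below it on that of mouse 4, and *Cldn8* stays far above it on all 3.

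The remaining 3 claudins were dim. *Cldn15*, a cation-pore claudin best known from the intestine, read 5.33, 6.60 and 5.38 in the esophagus and 5.24, 5.53 and 5.73 in the stomach, and the groups overlapped. It differed by 0.27 (95% confidence interval -0.53 to 1.07, limma adjusted p = 0.725), and by -0.15 without esophagus replicate 2. *Cldn23* read 5.64, 5.94 and 5.12 against 5.81, 6.24 and 5.93, overlapping too, with a difference of -0.43 (95% confidence interval -0.97 to 0.12, limma adjusted p = 0.336). It was detected on 3 stomach arrays and 1 esophagus array. *Cldn10*, a claudin with an anion-pore and a cation-pore form, was detected on no array, at 4.84, 4.97 and 4.93 against 5.0, 5.19 and 4.87.

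Of the other claudin genes on the array, 25 probes under 24 names with the *Cldn34* group and *Cldnd1* and *Cldnd2* included, 3 probes were called and 21 were detected on no array. These 3 of 25 are near the 12.2% called over all probes. Besides *Cldn17* these were *Cldnd1* and *Cldn12*, both detected on all 6 arrays. *Cldnd1* read 12.24, 12.52 and 12.21 in the esophagus and 11.40, 11.36 and 11.49 in the stomach, a difference of 0.91 (SE 0.15, limma adjusted p = 0.0065). *Cldn12*, a claudin that lacks the usual binding end for scaffold proteins, read 11.51, 11.11 and 11.14 against 12.22, 11.97 and 12.20, a difference of -0.88 (SE 0.17, limma adjusted p = 0.0134). Both were below 2-fold, at 1.87-fold and 1.84-fold.

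Claudins are tied to the cell skeleton by scaffold proteins and sit beside occludin, junctional adhesion molecules and polarity proteins. Of 31 such partner genes with 52 probes, 17 were called, 5 toward the esophagus and 12 toward the stomach, and 14 were not, beside 16.2% called of all gene names. Their median difference was -0.52, beside 0.02 over all probes. The count of called genes was 11 without stomach replicate 1 and 11 without stomach replicate 2. The list was drawn up with earlier results of these data known, so the counts are a description.

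Among the partners higher in the stomach, *Tjp3*, which encodes the scaffold ZO-3, read 11.44, 9.63 and 9.19 in the esophagus and 13.52, 13.54 and 13.98 in the stomach. The groups were well apart, with a difference of -3.59 (SE 0.52, limma adjusted p = 0.00335). *Cgn*, encoding cingulin, an adaptor on the inner face of the junction, read 10.39, 9.53 and 8.80 against 12.71, 12.27 and 12.14 (-2.80, SE 0.38, limma adjusted p = 0.00227). *Cxadr*, the coxsackievirus and adenovirus receptor, an adhesion molecule of the junction, had 2 probes, both called, at -2.42 and -1.81. *Ocln*, which encodes occludin, differed by -1.59 with a probe that was not called (limma adjusted p = 0.058) and by -1.75 with one that was (limma adjusted p = 0.0135).

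The main scaffold gene *Tjp1*, encoding ZO-1, was detected on all 6 arrays at 12.50, 11.64 and 11.21 in the esophagus and 12.45, 12.15 and 12.51 in the stomach. The groups overlapped and the difference of -0.59 (95% confidence interval -1.31 to 0.14, limma adjusted p = 0.322) was not called. On the esophagus side the largest differences were in *Pard6g*, *Amotl1* and *Pard3*. *Pard6g*, a PAR6 polarity gene, read 13.84, 14.38 and 13.95 against 8.43, 7.98 and 8.43, a difference of 5.78 (SE 0.21, limma adjusted p = 1.54e-06) or 54.8-fold. Its relative *Pard6b* was called the other way, at -1.71 (limma adjusted p = 0.0287), a call lost without the esophagus array of mouse 4 (-1.43, limma adjusted p = 0.0696). *Pard3*, the PAR3 scaffold gene, had 3 probes called at 1.96, 1.80 and 1.77, while the fourth, detected on all 6 arrays, differed by 0.40 with overlapping groups (limma adjusted p = 0.493). *Amotl1*, an angiomotin family gene, read 7.36, 7.24 and 7.33 in the esophagus and was undetected in the stomach, a difference of 2.42 or at least 5.08-fold.

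The esophagus array of mouse 4 was the lowest of its tissue for 15 of 39 partner probes detected on all 3 esophagus arrays, 38.5% against the 29% of all such probes. *Tjp3*, *Cgn*, *Tjp1* and *Ocln* were highest on the array of mouse 1 and lowest on that of mouse 4, while *Pard3* and *Pard6g* were not. That order was held by 12 of the 39 partner probes (30.8%), by 1 of the 3 claudin probes detected on all 3 esophagus arrays, that of *Cldn7*, and by 17% of all such probes. Without that array *Tjp3* differed by -3.15 (limma adjusted p = 0.00633), *Cgn* by -2.41 (limma adjusted p = 0.00223) and *Ocln* by -1.06 (limma adjusted p = 0.0384) and -1.36 (limma adjusted p = 0.00899).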

How the data were processed

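RNA of 6 organoid samples was labelled with Cy3 and hybridized by the authors to 1-color Agilent mouse 8x60K arrays read with Feature Extraction 11.5.1.1. The deposited scanner files hold spot intensity, local background intensity and detection flags, not normalized, with probe coordinates on mm9. The deposited log2 values had been background corrected and quantile normalized by the authors. Normexp with an offset of 15 and quantile normalization of the scanner intensities gave them back with a median absolute difference of 0.00433, and their 2029 empty cells were the outlier-marked spots. Each array had 62976 spots, of which 59305 were not controls. The share well above background was 45.5% to 47.3% in the esophagus and 46.7% to 51.1% in the stomach, and no spot was saturated.

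Spots of a probe were averaged and tested in R 4.3.3 with limma 3.58.1 (lmFit, eBayes, no block, all 6 arrays), tested first on simulated data. Lower bounds take, in the undetected tissue, the higher on each array of the probe's own value and the dimmest detected probe. Replicate numbers are the mouse numbers of the labels, which both tissues share, and were taken as pairs in an alternative fit. Deviations from the tissue means correlated at 0.025, 0.012 and -0.008 within a number and at -0.073 to 0.04 between numbers. The values within a number lay inside the range between numbers. With 3 arrays per tissue this cannot show whether the tissues were paired. Named were all 10 members, other claudins that were called, the 3 called partner genes with the largest difference in each direction, *Tjp1* and *Ocln*, and 7 markers. *Pard6b*, *Lgals4*, *Fabp2*, *Muc2*, *Cdx1*, *Atp4a*, *Atp4b*, *Cd68*, *Ptprc* and *Cd3e* were added after their values were seen. Members, lists and alternatives were chosen with earlier results of these data known. Alternatives were other normalizations of the intensities, a filter on dim probes, eBayes with trend and robust variances, mouse or slide as a term, other call rules, averaged probes and each array left out. The RefSeq gene and promoter tables (GRCm38.p6) served for neighbors and sequences, and protein sequences were not used here.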

Additional observations from a re-analysis of the deposited data

How the results depend on the processing

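The calls of *Cldn8*, both *Cldn2* probes, *Cldn18* and the *Cldn7* probe detected on all arrays were kept in all 14 alternatives run. *Cldn3* lost its call in 10 of 14, with limma adjusted p-values of 0.00441 to 0.155 over all of them. The number of claudin probes higher in the esophagus, 1 as reported, was 2 with each array scaled to its 75th percentile (*Cldn8* and *Cldn1*), 2 at an unadjusted p under 0.05 with 1.5-fold, and 4 with the slide as a term. With an array left out it was 1 to 4. The number of called partner genes, 17 as reported, was 11 to 21 with an array left out, 11 without stomach replicate 1 and 11 without stomach replicate 2. Other claudin genes called, 3 as reported, numbered 2 under 75th percentile scaling, without esophagus replicate 2 and without stomach replicate 1. *Cldn15* turned from 0.27 to -0.15 without esophagus replicate 2 and was -0.15 to 0.49 over the fits with an array left out. The undetected *Cldn7* probe was called at -1.74 (limma adjusted p = 0.0168) under 75th percentile scaling, which moved the median of all probes from 0.02 to 0.19. The cause of these changes was not tested. With the mouse as a replicate block in a paired fit 6 claudin probes, 5 claudin genes, 3 other claudin genes and 17 partner genes were called, as without it, and no claudin probe changed its call. Signal over background limits *Cldn10*, *Cldn15*, *Cldn23* and the undetected *Cldn7* probe, for which a lack of a call says little, and 3 arrays per tissue limit every interval.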
